A study of Mus musculus with 8 samples.

Results

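The genes described here encode the proteins of the cytosolic large (60S) ribosomal subunit. They were chosen by gene symbol, as genes reached through a RefSeq accession on the array whose symbol begins with Rpl and a digit or is *Rplp0*, *Rplp1* or *Rplp2*, without pseudogenes. Among RefSeq genes, 56 symbols met this rule, and 2 of them (*Rpl6l*, *Rpl32p*) were left out because RefSeq types them as pseudogenes. Of the other 54, *Rpl37rt* had no probe, so 53 members with 113 probes were measured among 20660 named genes on the array. A total of 51 members were well above background in both muscles and were tested. *Rpl10l* (1 of 16 measurements well above background) and *Rpl39l* (0 of 8) were not, and no ratio is given for them.

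Total RNA from flash-frozen *gastrocnemius* and *tibialis anterior* (TA) of *Eif6*+/- (heterozygous) mice was compared with RNA from wild-type (WT) mice, all aged 8 to 16 weeks. By the sample labels, each of 8 two-colour arrays held 1 *Eif6*+/- mouse labelled with Cy5 and 1 age-matched WT mouse labelled with Cy3, with 4 such pairs for each muscle. The design names 4 mice of each genotype, so both muscles may come from the same mice. No array had the dyes exchanged, so dye and genotype cannot be told apart, and all 8 arrays lay on 1 slide with each muscle in its own line of 4, so position on the slide and muscle cannot be told apart. Values are log2 ratios of *Eif6*+/- over WT, in which 0 means equal signal, and the number of arrays limits their precision.

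The large subunit carries the centre that joins amino acids, the tunnel through which the new chain leaves, and a stalk of acidic proteins that recruits translation factors. The factor eIF6 binds the face of this subunit that meets the small subunit, helps in its assembly in the nucleolus, and keeps the subunits apart until it is released in the cytoplasm. The mRNAs of ribosomal proteins begin with a run of pyrimidines, the TOP motif, through which the mTOR pathway controls their translation.

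The muscle labels were compared with fibre markers. All 10 slow fibre and all 11 fast fibre markers were well above background in both muscles. *Myh7*, the myosin heavy chain of slow fibres, had log2 levels of 9.66, 13.03, 12.83 and 14.96 in *gastrocnemius* and 7.45, 10.83, 7.69 and 8.43 in TA of WT mice. WT *gastrocnemius* of pair 1 lay below WT TA of pair 2, so the muscles overlapped on this marker. The means were 12.62 and 8.60, or 13.61 without that *gastrocnemius* animal and 7.85 without that TA animal. In *Eif6*+/- mice every *gastrocnemius* level (11.21 or more, mean 13.27) lay above every TA level (9.08 or less, mean 8.16). *Myh4*, the heavy chain of the fastest fibres, stood at 16.79 in *gastrocnemius* and 16.45 in TA of WT mice. The median ratio of the slow markers was 2.63, −1.16, −0.27 and −0.06 in *gastrocnemius* pairs 1 to 4, so the animals of a *gastrocnemius* pair, pair 1 most, differed in slow fibre signal. In TA it was −0.24, −0.49, −0.11 and −0.98, and 5 of 10 slow markers were lower in *Eif6*+/- mice and 0 higher (*Tnnt1* −0.90, *Tnni1* −0.80, *Casq2* −0.59), while *Myh4* was higher (0.80, limma adjusted p = 0.0119, 4 of 4 pairs). In *gastrocnemius* 0 of 10 slow markers were called. Of the 11 fast markers 1 was higher and 3 lower in *gastrocnemius*, and 2 higher and 2 lower in TA. The part of fibre type in the ratios of members was not tested.

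*Eif6* itself was low in every *Eif6*+/- sample. Its log2 ratios in *gastrocnemius* pairs 1 to 4 were −0.97, −1.15, −0.89 and −1.06. In TA pairs 1 to 4 they were −1.22, −1.03, −0.95 and −0.80. All 8 ratios lay at −0.80 or lower, and the muscles overlapped. The mean was −1.02 (SD 0.11) in *gastrocnemius* (limma, adjusted p = 0.0241, lower in 4 of 4 pairs) and −0.999 (SD 0.17) in TA (limma, adjusted p = 0.0109, lower in 4 of 4 pairs). The second *Eif6* probe gave −1.13 and −1.12. In *gastrocnemius* the call was lost without pair 3 (−1.06, limma adjusted p = 0.122) and without pair 4 (limma adjusted p = 0.157).

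In *gastrocnemius*, 8 of 51 members were lower in *Eif6*+/- mice and 1 was higher. The lower ones were led by *Rpl3*, a protein next to the eIF6 site, and *Rpl28*, and the higher one was *Rpl23*, the main contact of eIF6 on the subunit. In TA, 11 of 51 members were higher, led by *Rpl23*, *Rpl14* and *Rpl32*, and 0 were lower, a split that depended on the probe and on the scaling. Probes other than the brightest were called lower in TA for *Rpl7a* (−0.33, limma adjusted p = 0.0365), *Rpl31* (−0.23, limma adjusted p = 0.0802) and *Rpl29*. Such probes were called higher there for *Rpl7*, *Rpl11*, *Rpl13*, *Rpl23* and *Rpl38*. With loess normalization alone 10 members were higher and 4 lower in TA, beside 11% and 6.04% of all genes, and in the authors' deposited ratios 9 were higher and 2 lower, beside 9.86% and 5.9%. The means furthest from 0 were those of *Rpl3* in *gastrocnemius* (−0.75) and *Rpl23* in TA (0.56). A gene was called where limma gave an adjusted p under 0.1 for the ratio against 0. By that rule 5.53% of all genes tested in *gastrocnemius* were lower, beside 15.7% of members, and 9.86% were higher, beside 1.96% of members. In TA, 7.28% of all genes were lower, beside 0% of members, and 8.98% were higher, beside 21.6% of members. Altogether 19 members were called in at least 1 muscle, and *Rpl23* was called in both. At an unadjusted limma p under 0.05, 12 members were lower and 2 higher in *gastrocnemius*, beside 11.7% and 17.3% of all genes, and 3 were lower and 17 higher in TA, beside 12.9% and 16.2%. SAM called 1 member lower and 12 higher in TA, beside 8.57% and 11.3% of all genes, and 9 lower and 1 higher in *gastrocnemius*, beside 6.59% and 14.9%.

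These counts depended on single pairs. In *gastrocnemius* 3 members were higher and 3 lower without pair 1, beside 8.27% and 5.69% of all genes. The lower members were therefore near the share of all genes there. Without pair 2 the counts were 0 higher and 4 lower, beside 6.22% and 4.29% of all genes. Called members numbered 0 without pair 3 or without pair 4. Over all genes tested limma called 1942 in *gastrocnemius*, 1768 without pair 1, 1339 without pair 2 and 0 without pair 3 or pair 4. Without 1 pair *Rpl3* ranged from −0.87 to −0.56, *Rpl28* from −0.44 to −0.35, *Rpl41* from −0.46 to −0.29, *Rpl23a* from −0.40 to −0.28 and *Rpl23* from 0.30 to 0.43, each keeping its direction, and *Rpl13* and *Rpl21* were called in 0 of these 4 fits. In TA 7 members were higher and 1 lower without pair 3, beside 5.94% and 3.63% of all genes. Members higher without pair 2 numbered 3, beside 2.76% of all genes. Over all genes limma called 2014 in TA, 1187 without pair 3, 543 without pair 2 and 68 without pair 1. Without pair 1 *Rpl23* alone was called among members, at 0.56, whereas *Rpl14* (0.44), *Rpl32* (0.36), *Rpl4* (0.32), *Rpl37* (0.25) and *Rpl7* (0.29) kept their direction and lost the call. The median over the 51 members was −0.07 in *gastrocnemius* and 0.09 in TA, beside 0.02 for all genes in both, and it kept its sign under each way of scaling, falling to 0.03 in TA with loess alone.

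**Figure D1:**
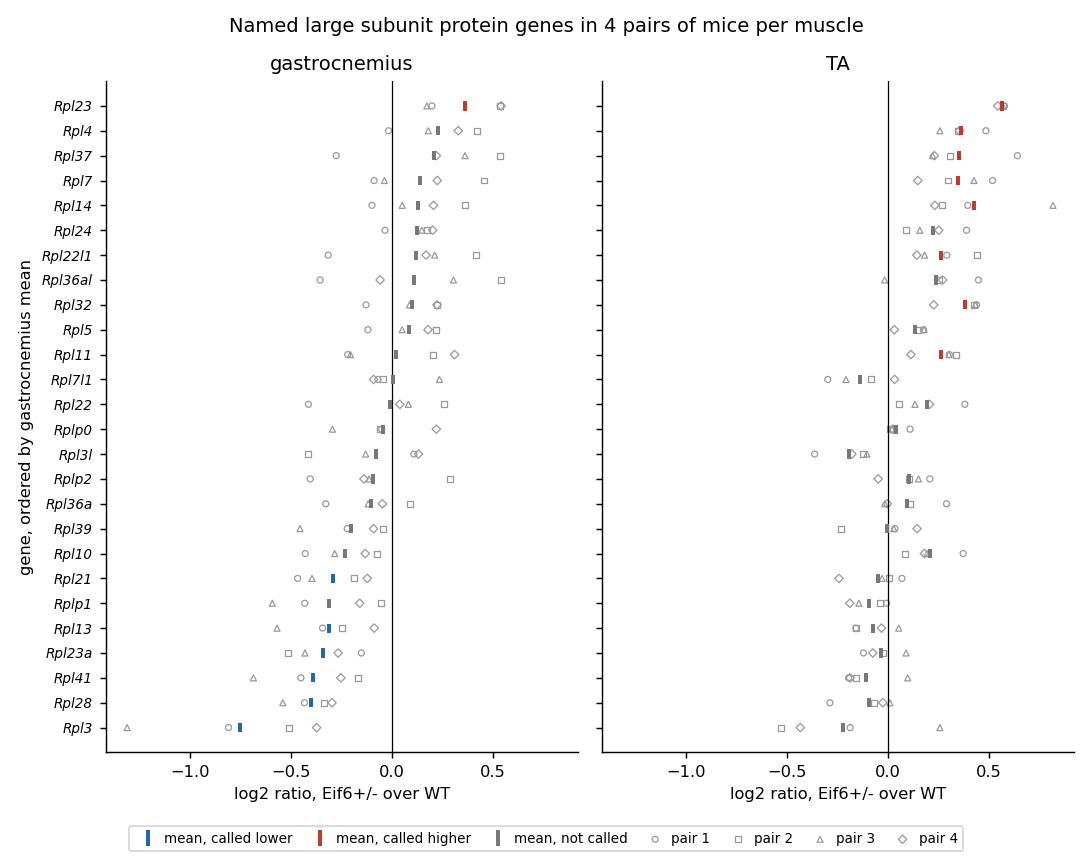
Log2 ratio of *Eif6*+/- over WT (x axis) of the 26 large subunit protein genes taken by the rule for naming genes (y axis, ordered by the *gastrocnemius* mean) in 4 pairs of each muscle, with open symbols for the pairs and bars for the mean, blue or red where called. *Rpl3* lies lowest at −0.75 in *gastrocnemius* and *Rpl23* highest at 0.36 in *gastrocnemius* and 0.56 in TA.

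Among the proteins at the eIF6 site, *Rpl23* and *Rpl3* were called and *Rpl24* was not. The ratio of *Rpl23* was 0.20, 0.54, 0.17 and 0.54 in *gastrocnemius* and 0.58, 0.57, 0.57 and 0.54 in TA. It was above 0 on all 8 arrays, the only member of which this held (10% of all genes did so), and every *gastrocnemius* ratio lay below every TA ratio, the highest only narrowly. The mean was 0.36 (SD 0.20) in *gastrocnemius* (limma, adjusted p = 0.067, 4 of 4 pairs) and 0.56 (SD 0.0145) in TA (limma, adjusted p = 0.0119, 4 of 4 pairs). This is the brightest of 3 *Rpl23* probes. The others read 0.03 and −0.01 in *gastrocnemius* and 0.25 (limma, adjusted p = 0.0594, called) and 0.08 in TA, so the size of the change differed between probes of the same gene and the *gastrocnemius* call rests on the brightest.

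*Rpl3*, which reaches toward the peptidyl transferase centre, read −0.81, −0.51, −1.31 and −0.37 in *gastrocnemius*. In TA it read −0.19, −0.53, 0.26 and −0.43. It was low in all 4 *gastrocnemius* pairs, furthest in pair 3, while TA pair 3 was the only array above 0 and the muscles overlapped. The mean was −0.75 (SD 0.42) in *gastrocnemius* (limma, adjusted p = 0.0421) and −0.22 (SD 0.35) in TA (limma, adjusted p = 0.272, lower in 3 of 4 pairs). The log2 levels of *Rpl3* in the *Eif6*+/- animals of *gastrocnemius* pairs 1 to 4 were 11.75, 11.62, 11.56 and 11.77. In the WT animals of the same pairs they were 12.55, 12.13, 12.87 and 12.15. The low ratios of pairs 1 and 3 therefore came with the highest WT levels, whereas the *Eif6*+/- levels stayed within a narrow range. *Rpl24*, which forms a bridge to the small subunit, read −0.03, 0.18, 0.15 and 0.20 in *gastrocnemius* and 0.39, 0.09, 0.16 and 0.25 in TA. It was above 0 in 3 of 4 and 4 of 4 pairs but did not pass (limma, adjusted p = 0.336 and 0.107), and its second probe had means of −0.16 and −0.08.

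The P stalk held no called member. *Rplp0*, the base of the stalk, had ratios of −0.05, −0.06, −0.29 and 0.22 in *gastrocnemius* and of 0.11, 0.01, 0.02 and 0.02 in TA. *Rplp1*, a stalk protein that pairs with *Rplp2*, read −0.43, −0.05, −0.59 and −0.16 in *gastrocnemius* and −0.01, −0.04, −0.14 and −0.19 in TA. It was below 0 on all 8 arrays, as were 4 of 51 members (7.84%), beside 5.69% of all genes. Its mean of −0.31 in *gastrocnemius* did not pass (limma, adjusted p = 0.12). *Rplp2* read −0.40, 0.29, −0.11 and −0.14 in *gastrocnemius* and 0.21, 0.11, 0.15 and −0.05 in TA, with means of −0.09 and 0.10.

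Of the proteins that join the 5S RNA before it enters the subunit, *Rpl11* was called in TA and *Rpl5* in neither muscle. *Rpl11* read −0.22, 0.21, −0.20 and 0.31 in *gastrocnemius* and 0.30, 0.34, 0.30 and 0.11 in TA. All TA pairs were above 0, pair 4 least, and the *gastrocnemius* pairs split evenly around 0. The TA mean was 0.26 (limma, adjusted p = 0.0637, 4 of 4 pairs), and its other probes gave 0.33 and 0.32 there (limma, adjusted p = 0.0431 and 0.0419). The call was lost with a normexp offset of 0 (0.27, limma adjusted p = 0.126), with loess alone (0.18, limma adjusted p = 0.144), in the deposited ratios (0.19, limma adjusted p = 0.154) and with Agilent's processed signals (0.09, limma adjusted p = 0.594), and without pair 1, 2 or 3. With 1 TA pair left out the mean of *Rpl11* ranged from 0.24 to 0.31. *Rpl5* read −0.12, 0.22, 0.05 and 0.18 in *gastrocnemius* and 0.18, 0.15, 0.18 and 0.03 in TA, with means of 0.08 and 0.13 (limma, adjusted p = 0.555 and 0.237).

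Around the exit tunnel, where nascent chains meet their chaperones and the signal recognition particle, 2 of 8 members fell in *gastrocnemius* (*Rpl23a*, *Rpl17*), where 5.53% of all genes did, and 2 of 8 rose in TA (*Rpl4*, *Rpl35*), where 8.98% did. *Rpl23a*, a docking site at the tunnel mouth, read −0.15, −0.51, −0.43 and −0.26 in *gastrocnemius*, with a mean of −0.34 (limma, adjusted p = 0.0641, 4 of 4 pairs). It was low in every *gastrocnemius* pair and near 0 in TA (−0.12, −0.02, 0.09 and −0.07), without overlap, and its second probe fell too (−0.35, limma adjusted p = 0.0617). *Rpl4*, which reaches into the tunnel wall, read −0.02, 0.42, 0.18 and 0.33 in *gastrocnemius* and 0.49, 0.35, 0.26 and 0.35 in TA. All TA pairs were high, with a mean of 0.36 (limma, adjusted p = 0.0318), while *gastrocnemius* pair 1 stood apart near 0. *Rpl17* had a mean of −0.28 in *gastrocnemius* (limma, adjusted p = 0.0952), and *Rpl35* of 0.32 in TA (limma, adjusted p = 0.0466), each in 4 of 4 pairs. The other 6 *Rpl17* probes lay between −0.18 and 0.22 in *gastrocnemius* and 0 of them were called, so its fall rests on the brightest probe. The median of the 8 was −0.17 in *gastrocnemius* and −0.01 in TA.

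*Rpl3* and *Rpl28* aside, the falls in *gastrocnemius* were close to the threshold. *Rpl28* read −0.43, −0.34, −0.54 and −0.29 in *gastrocnemius* and −0.29, −0.07, 0.01 and −0.03 in TA. Every *gastrocnemius* ratio was below every TA ratio, and the mean of −0.40 (SD 0.11) was lower in 4 of 4 pairs (limma, adjusted p = 0.0394). *Rpl41*, the smallest protein of the ribosome, read −0.45, −0.17, −0.68 and −0.25 (mean −0.39, limma adjusted p = 0.0667). *Rpl13* read −0.34, −0.24, −0.57 and −0.09 (mean −0.31, limma adjusted p = 0.0935). *Rpl21* read −0.47, −0.18, −0.39 and −0.12 (mean −0.29, limma adjusted p = 0.0888). In these 3 genes pairs 1 and 3 were lowest, as they were for *Rpl3*. The other *Rpl21* probes read 0.10 and 0.07 and the third *Rpl13* probe 0.08 (0.39 in TA, limma adjusted p = 0.0254), so for those genes the fall was seen on the brightest probe and not on every probe.

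The largest rises in TA after *Rpl23* were those of *Rpl14* and *Rpl32*. *Rpl14* read 0.40, 0.27, 0.82 and 0.23, with a mean of 0.43 (SD 0.27, limma adjusted p = 0.0482) and its highest value in pair 3. Its second probe gave 0.17 and was not called (limma adjusted p = 0.186), so that rise rests on the brightest probe. *Rpl32* read 0.44, 0.42, 0.43 and 0.23, with a mean of 0.38 (SD 0.10, limma adjusted p = 0.0285). *Rpl37* read 0.64, 0.31, 0.22 and 0.23, with a mean of 0.35 (limma adjusted p = 0.0528). All of these ratios were above 0, and each gene had a single pair apart from the other 3. *Rpl29* rose on its brightest probe (0.32, limma adjusted p = 0.0421) and fell on its second (−0.33, limma adjusted p = 0.0328), so it is counted as higher by the brightest probe alone.

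Of 4 paralogs that could be tested beside their parents, 1 rose in TA, where 8.98% of all genes did, and 0 were called in *gastrocnemius*, where 9.86% of all genes were higher and 5.53% lower. *Rpl3l*, a form of *Rpl3* made in skeletal and heart muscle, read 0.11, −0.41, −0.13 and 0.13 in *gastrocnemius* and −0.36, −0.12, −0.10 and −0.18 in TA. It was below 0 in all TA pairs and on both sides of 0 in *gastrocnemius*, with means of −0.07 and −0.19 that did not pass (limma, adjusted p = 0.691 and 0.139). *Rpl22l1*, paralog of *Rpl22*, read −0.31, 0.42, 0.21 and 0.17 in *gastrocnemius* and 0.29, 0.44, 0.18 and 0.14 in TA, where it rose (mean 0.26, limma adjusted p = 0.0726). That call was lost without pair 1, 2 or 3 (limma adjusted p = 0.252, 0.218 and 0.116) and in 4 of 9 processing alternatives, among them loess alone (0.19, limma adjusted p = 0.143). With 1 TA pair left out the mean of *Rpl22l1* ranged from 0.21 to 0.30, so its size changed little where the call was lost. *Rpl22* itself had means of −0.01 and 0.19 and was not called. *Rpl7* read 0.52, 0.30, 0.43 and 0.15 in TA and rose (mean 0.35, limma adjusted p = 0.0453), and its paralog *Rpl7l1* had means of 0.01 and −0.14. *Rpl36al* (0.11 and 0.24), *Rpl36a* (−0.10 and 0.10) and *Rpl39* (−0.20 and −0.01) were not called. The paralogs *Rpl10l* and *Rpl39l* were too dim to test. Near-identical copies such as *Rpl32* and *Rpl32l*, parents with their paralogs, and unlisted pseudogenes may share a probe's signal, which was not tested.

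*Rpl10*, which is among the last proteins to join the subunit, read −0.43, −0.07, −0.28 and −0.13 in *gastrocnemius* and 0.37, 0.09, 0.19 and 0.18 in TA. All 4 *gastrocnemius* ratios were below 0 and all 4 TA ratios above it. Neither mean passed (−0.23, limma adjusted p = 0.144; 0.21, limma adjusted p = 0.118), and its other probes had differences between the muscles of 0.03 and −0.11 where the brightest had −0.44. The second probe was called higher in *gastrocnemius* (0.35, limma adjusted p = 0.096), so the probes disagreed there.

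Across the 51 members the ratio was usually lower in *gastrocnemius* than in TA. The difference was below 0 for 48 of 51 (94.1%), beside 47.8% of all genes, and its median was −0.18 for members and 0.01 for all genes. No difference passed the threshold. Over 8 arrays taken as separate animals, limma called 0 of 51 members and 0% of 12206 genes, and 7 members fell below an unadjusted p of 0.05 in the lower direction (13.7%, beside 3.47% of all genes) and 0 in the higher (4.7% of all genes). With the pair number as a replicate block, for the case that equal numbers are the same mice, limma again called 0. In that fit 3 of 51 members fell below an unadjusted p of 0.05, beside 840 of 12206 genes, so members were not in excess. The largest differences were −0.52 for *Rpl3* (SE 0.218, limma adjusted p = 0.636) and −0.44 for *Rpl10* (SE 0.109, limma adjusted p = 0.636). All 4 *gastrocnemius* ratios lay below all 4 TA ratios for 7 members (1.43% of all genes), namely *Rpl10*, *Rpl23*, *Rpl23a*, *Rpl27a*, *Rpl28*, *Rpl32* and *Rpl32l*. Within *gastrocnemius* 16 members were below 0 in every pair (13.9% of all genes), and in TA 25 were above 0 in every pair (19.8% of all genes). A call in 1 muscle and not in the other therefore does not show that the muscles differ.

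**Figure D2:**
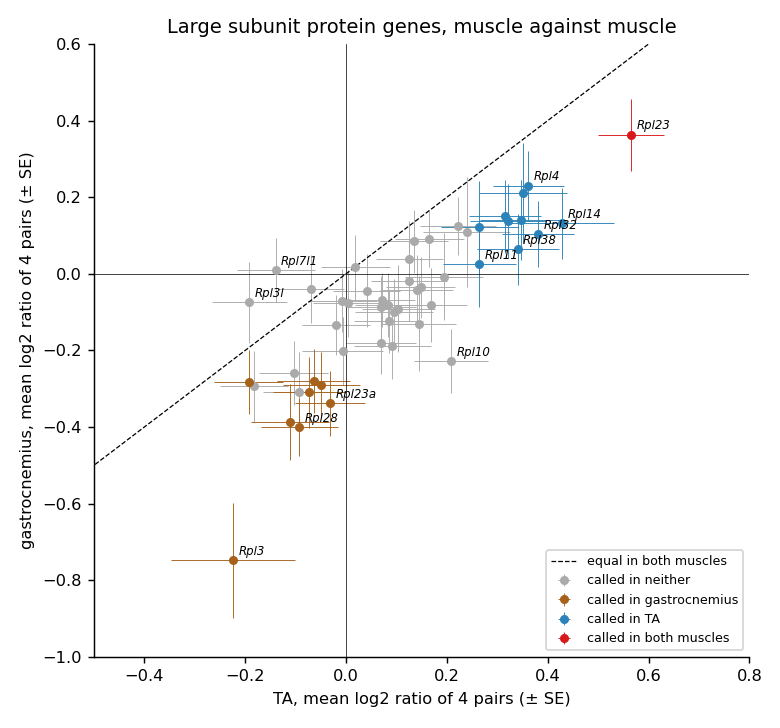
Mean log2 ratio of each member over 4 pairs in TA (x axis) and *gastrocnemius* (y axis), with a dashed line where the muscles are equal. Bars are 1 SE from limma, whose variance estimate draws on all kept probes. Colours give the muscle in which the gene was called. Of 51 points, 48 lie below the line, *Rpl3* furthest at −0.52, and the difference was called for 0.

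The members did not stand alone in this. The small subunit proteins, which share their regulation, had medians of −0.04 in *gastrocnemius* and 0.09 in TA and a median difference of −0.15, with 30 of 33 below 0. In the other bright genes, those among the brightest 5% as 47 of 51 members are, the medians were 0.13 and 0.08 and the difference 0.02, with 44.6% below 0. Whether signal strength has a part in the ratios of members was not tested. The small subunit had 0 genes higher and 4 lower in *gastrocnemius* (*Rps15* −0.36, *Rps4x* −0.34, *Rps15a* −0.31) and 5 higher and 2 lower in TA (*Rps24* 0.41 and *Rps12* 0.36 among the higher).

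**Figure D3:**
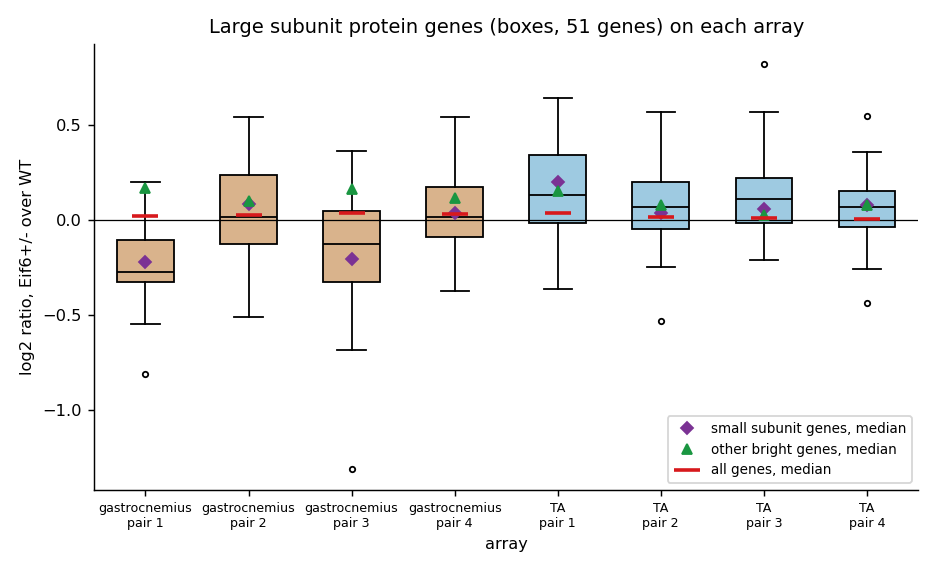
Log2 ratios of the 51 members on each of 8 arrays (boxes: median, quartiles and whiskers to the furthest value within 1.5 times the box), with the medians of small subunit genes, other bright genes and all genes. The member median is lowest in *gastrocnemius* pairs 1 (−0.27) and 3 (−0.13) and above 0 in all TA pairs.

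By array, the member median was −0.27, 0.02, −0.13 and 0.02 in *gastrocnemius* and 0.13, 0.07, 0.11 and 0.07 in TA. The number of members above 0 was 6, 28, 15 and 26 of 51 in *gastrocnemius* and 37, 34, 37 and 32 in TA. *Gastrocnemius* pairs 1 and 3 were low and pairs 2 and 4 near 0, while the TA pairs were alike.

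The level in each dye shows which animal of a pair was high. Centring each member on its own mean over the 8 samples of a dye, the median over members in the WT channel was 0.24, −0.01, 0.16 and −0.04 in *gastrocnemius* and −0.16, −0.06, −0.06 and −0.02 in TA. In the *Eif6*+/- channel it was −0.02, 0.04, −0.03 and −0.03 in *gastrocnemius* and −0.03, −0.00, 0.04 and 0.02 in TA. The WT animals of *gastrocnemius* pairs 1 and 3 were the high ones, with 48 and 42 of 51 members above their mean, and the WT animal of TA pair 1 was the lowest, with 4. WT levels were higher in *gastrocnemius* than in TA for 45 of 51 members (median 0.16), and *Eif6*+/- levels for 21 of 51 (median −0.01). For all genes these medians were −0.03 in both genotypes.

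Markers of other cell types varied between animals too, and only some of the lists were high in the same animals. Of 13 leukocyte markers, 12 were on the array and 8 were kept in both muscles, *Itgam* being the brightest, while *Ptprc*, *Cd79a*, *S100a8* and *S100a9* were not kept in both. In *gastrocnemius* 1 of 8 was lower (*Cd74* −1.10), and in TA 2 of the 10 kept there were lower (*S100a9* −1.61, *C1qb* −0.46), with 0 higher in either and medians of −0.59 and −0.07. Their summed intensity in WT *gastrocnemius* was 10842, 7945, 15647 and 7094, and in the *Eif6*+/- animals 6437, 7251, 6552 and 6452. In TA it was 6222, 6312, 5572 and 6931 in WT and 6501, 4919, 5806 and 6629 in *Eif6*+/-. The WT animals of *gastrocnemius* pairs 1 and 3 were high in this sum, as they were for members, but not for every marker. In WT *gastrocnemius* pairs 1 to 4 *Itgam* had log2 levels of 10.52, 11.30, 11.15 and 10.91, and *Cd3e* 8.68, 8.81, 8.37 and 8.61. Without *Itgam* the WT *gastrocnemius* sums were 9375, 5416, 13378 and 5170. The 10 connective tissue markers, brightest *Col1a2*, summed to 187482, 118758, 322614 and 144813 in WT *gastrocnemius*, and to 182047, 124063, 119824 and 178681 in *Eif6*+/-. In TA they summed to 64119, 100411, 41980 and 93050 in WT and 77904, 56728, 185990 and 80593 in *Eif6*+/-. WT *gastrocnemius* pair 3 was again the highest, whereas WT pair 1 was near its *Eif6*+/- partner (187482 and 182047). Of 10 markers of satellite cells and regeneration, 7 were kept in both muscles (*Myf5*, *Chrng* and *Top2a* were not), and the brightest, *Myh8*, was higher in *gastrocnemius* (0.46) and TA (0.86). The log2 level of *Myh8* in WT *gastrocnemius* was 17.30, 16.77, 16.72 and 16.98, near that of *Myh4* (17.14, 16.57, 16.64 and 16.82). Whether its probe reads *Myh8* alone was not tested. *Myog* was higher in TA (0.42) and *Mki67* lower in *gastrocnemius* (−0.78), and the medians were −0.28 and −0.01. The 7 together summed to 165810, 113528, 113011 and 130964 in WT *gastrocnemius* and 172467, 170963, 171016 and 186698 in *Eif6*+/-, and in TA to 102648, 126699, 100612 and 88466 in WT and 189259, 167084, 189275 and 204524 in *Eif6*+/-. Nearly all of this is *Myh8*, and the other 6 all had means below 0 in *gastrocnemius*. Without *Myh8* they summed to 4253, 1727, 5169 and 1709 in WT *gastrocnemius* and 1633, 1596, 1648 and 1632 in *Eif6*+/-, and in TA to 1641, 1670, 1694 and 2120 in WT and 1531, 2327, 1548 and 1585 in *Eif6*+/-. *Myh3*, the embryonic myosin heavy chain, had log2 levels of 11.28, 6.91, 11.67 and 7.90 in WT *gastrocnemius*, so WT pairs 1 and 3 were high for it, and for the sums without *Myh8*, as for members, with ratios of −2.95, −0.03, −3.24 and 0.18.

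Markers of fat and blood cells varied between animals as well. Of 8 endothelial markers 0 were called in *gastrocnemius* and 2 were lower in TA (medians −0.04 and −0.07), and of 6 markers of myelinated nerve 0 were called in *gastrocnemius* and 3 were lower in TA (medians −0.08 and −0.25). Of 10 adipocyte markers, 9 were kept in both muscles (*Lep* was not; brightest *Car3*), and 2 were lower in *gastrocnemius* (*Cfd* −0.89, *Adipoq* −0.64) and 3 higher in TA (*Retn* 0.65, *Cidec* 0.60, *Plin1* 0.51), with medians of −0.24 and 0.44. They summed to 105998, 99446.8, 73071.5 and 144864 in WT *gastrocnemius* and 89719.3, 92594.1, 45886.8 and 92862.5 in *Eif6*+/-, and in TA to 62142.9, 62978.6, 59679.9 and 52725.8 in WT and 72391.6, 57690.1, 61595.9 and 66882.2 in *Eif6*+/-. Of 6 blood markers, 5 were kept in both (*Slc4a1* was not; brightest *Hba-a2*), 0 were called in *gastrocnemius* and 4 of 6 were lower in TA (*Hbb-bs* −1.30, *Hba-a1* −0.72, *Alas2* −0.67), with medians of −0.27 and −0.65. The 5 summed to 54567.3, 77524.7, 90711.9 and 69122.6 in WT *gastrocnemius* and 71263.2, 69624.4, 70636.8 and 66731.1 in *Eif6*+/-, and in TA to 78242.5, 76985.6, 57510.9 and 71014.3 in WT and 67678.9, 37963.4, 41657.9 and 70180.8 in *Eif6*+/-. In WT *gastrocnemius* pair 4 was the highest and pair 3 the lowest for fat, and pair 3 the highest and pair 1 the lowest for blood. The part of all these cells in the ratios of members was not tested, and in whole muscle fewer cells of a type cannot be told apart from less RNA per cell.

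**Figure D4:**
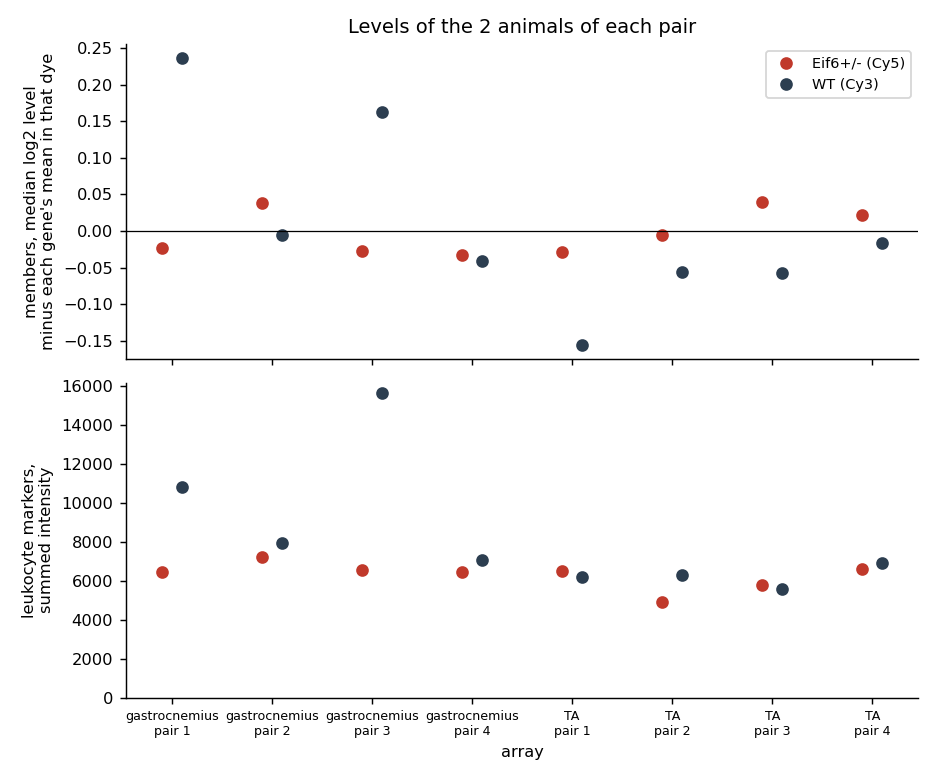
Top, the median over 51 members of the log2 level, centred on each gene's mean in that dye, in each animal. Bottom, the summed intensity of 8 leukocyte markers in the same animals; WT *gastrocnemius* pairs 1 and 3 are high in both panels (0.24 and 0.16; 10842 and 15647).

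Probes of the same gene often disagreed in level of ratio but less in the difference between muscles. Of 31 members with at least 2 kept probes, 16 had probes on both sides of 0 in *gastrocnemius* and 19 in TA. In the difference, 21 of 31 had every probe below 0, as did 91 of 106 probes. Of 9 members called in *gastrocnemius*, 5 had another kept probe and 1 of those (*Rpl23a*) had another probe called the same way. Of 11 called in TA, 6 had another, 4 (*Rpl7*, *Rpl11*, *Rpl23*, *Rpl38*) had another called the same way, and 1 (*Rpl29*) the opposite way.

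**Figure D5:**
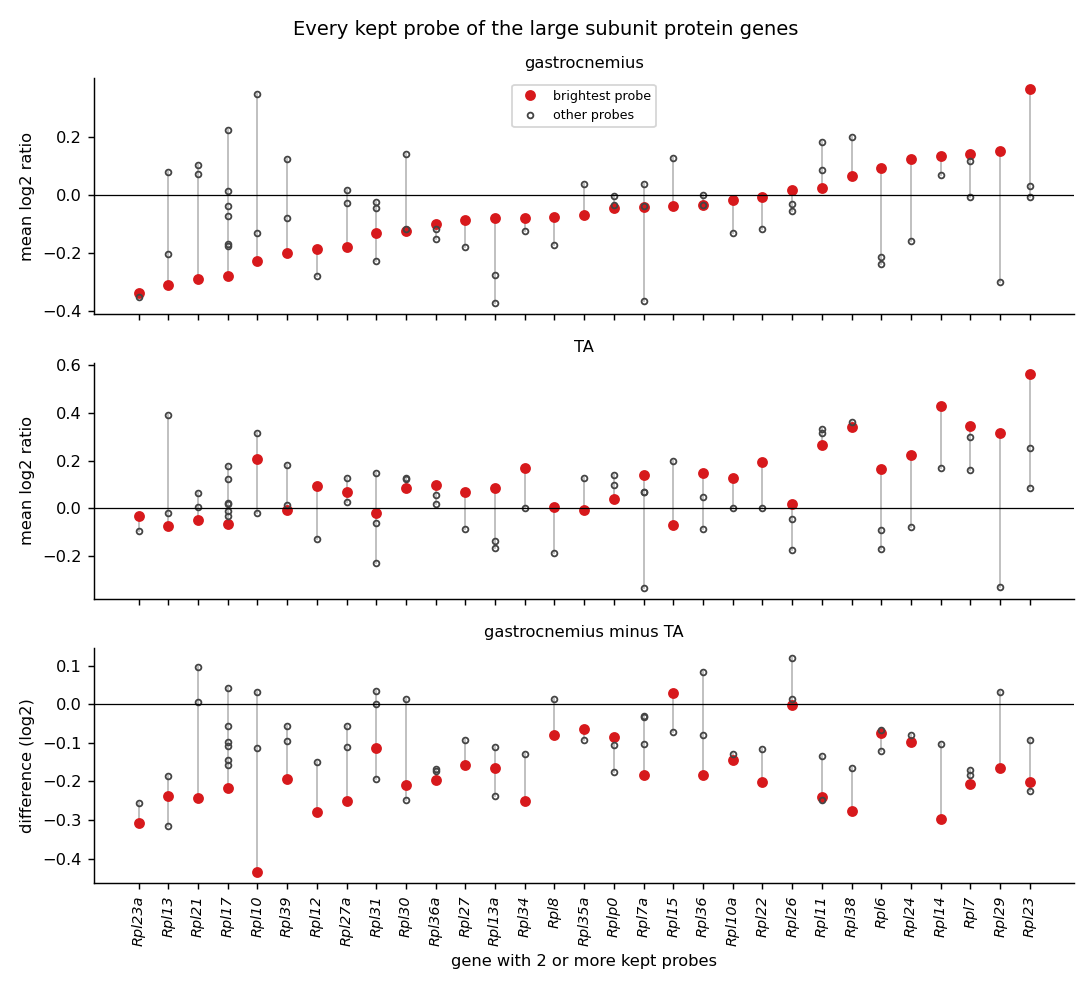
Mean log2 ratio of every kept probe (y axis) of the 31 members with at least 2 (x axis), in *gastrocnemius*, in TA and as the difference, with the brightest probe in red. Probes straddle 0 for 16 genes in *gastrocnemius* and 19 in TA, and all lie below 0 in the difference for 21.

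Genes that act with the subunit were described for comparison, beside 9.86% of all genes higher and 5.53% lower in *gastrocnemius* and 8.98% higher and 7.28% lower in TA. Of 36 tested factors of 60S assembly and release, 11 were higher and 1 lower in *gastrocnemius* (median 0.08) and 8 higher and 4 lower in TA (median 0.08). *Eif6* is on this list, as the 1 lower in *gastrocnemius* and, with *Nle1* (−0.32), *Wdr74* and *Grwd1* (both −0.26), among the 4 lower in TA. *Pes1* and *Ddx24* in *gastrocnemius* (0.80 and 0.49) and *Pes1* and *Brix1* in TA (0.46 and 0.39) led the rises. Of the other TOP mRNAs, 3 of 21 were higher and 3 lower in *gastrocnemius* (*Eef1a1* −0.63, *Pabpc1* −0.49, *Hnrnpa1* 0.31; median −0.03), and 3 of 20 higher and 1 lower in TA (*Eif3k* 0.43, *Rack1* 0.42, *Eif3h* 0.31; median 0.06). Of 18 regulators of TOP mRNAs and ribosomal RNA synthesis, 3 were higher and 2 lower in *gastrocnemius* (*Rheb* 0.47, *Rptor* 0.43, *Eif4e* 0.36; median 0.11) and 5 higher and 2 lower in TA (*Ubtf* 0.48, *Rheb* 0.44, *Rps6kb1* 0.42; median 0.06). Of 14 targets of p53, which responds when free *Rpl5* and *Rpl11* bind its inhibitor, 1 was higher and 1 lower in *gastrocnemius* (*Aen* 0.33, *Bax* −0.26; median −0.07) and 2 were lower in TA (*Bax* −0.24, *Cdkn1a* −0.24; median 0.02).

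The start regions of some members are shown because their pyrimidine runs are the element by which these mRNAs are known. In the RefSeq promoter table (GRCm38.p6), 41 of 53 members had 48 promoters. Shown are the called members of largest change that had a promoter there, and *Rpl3l*. Where a gene had several promoters, the most upstream start was taken. Each line below gives 40 bases before to 20 after the annotated start, 5′ to 3′ on the gene's strand, with the longest run of 5 or more pyrimidines in capitals where there is one. They are *Rpl28* (chr7:4792925-4792984, plus strand), *Rpl41* (chr10:128549149-128549208, minus strand) and *Rpl13* (chr8:123102310-123102369, plus strand), lower in *gastrocnemius*; *Rpl23* (chr11:97782420-97782479, minus strand), *Rpl14* (chr9:120571477-120571536, plus strand), *Rpl4* (chr9:64173347-64173406, plus strand) and *Rpl37* (chr15:5116573-5116632, plus strand), higher in TA; and *Rpl3l* (chr17:24727786-24727845, plus strand), the muscle paralog.
Rpl28: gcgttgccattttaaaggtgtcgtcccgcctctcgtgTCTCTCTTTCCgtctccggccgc
Rpl41: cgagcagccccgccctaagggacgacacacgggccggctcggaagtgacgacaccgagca
Rpl13: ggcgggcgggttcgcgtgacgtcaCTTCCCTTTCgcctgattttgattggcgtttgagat
Rpl23: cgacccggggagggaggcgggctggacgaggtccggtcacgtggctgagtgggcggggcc
Rpl14: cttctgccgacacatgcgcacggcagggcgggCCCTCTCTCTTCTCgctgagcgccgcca
Rpl4: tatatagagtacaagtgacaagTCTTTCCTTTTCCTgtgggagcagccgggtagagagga
Rpl37: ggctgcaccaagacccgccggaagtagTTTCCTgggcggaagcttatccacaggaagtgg
Rpl3l: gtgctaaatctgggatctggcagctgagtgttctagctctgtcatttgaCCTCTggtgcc

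Of the 7 called members shown, *Rpl41*, *Rpl23* and *Rpl37* have no run of at least 8 pyrimidines near the start that is shown. A run of at least 8 pyrimidines within 30 bases of the start was present in 25 of 48 member promoters (52.1%), beside 22.9% of 32851 promoters in all. A C at the annotated start followed by at least 4 C or T was present in 8 of 48 (16.7%), beside 2.51% of all. On either strand of the whole promoter, CCGGAAG was in 31.2% of member promoters and 8.86% of all, AAGATGG in 14.6% and 6.34%, CACGTG in 14.6% and 7.15%, and TATAAA in 12.5% and 13.6%. The 23 members with a run had medians of −0.07 in *gastrocnemius*, 0.08 in TA and −0.16 for the difference, and the 16 without had −0.03, 0.13 and −0.15. These matches are descriptions of letters in a window and not of sites.

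The 25 members that the rule for naming genes did not take ranged from −0.29 (*Rpl19*) to 0.15 (*Rpl29*) in *gastrocnemius*, with a median of −0.08. Of these 25, 2 were called there, where 15.4% of all genes were. In TA they reached 0.34 (*Rpl38*), with a median of 0.08, and 3 were called, where 16.3% of all genes were. Their differences lay between −0.28 (*Rpl12*) and 0.03 (*Rpl15*). *Rpl17* (−0.28) was among those called in *gastrocnemius*, and the 3 in TA were *Rpl38* (0.34), *Rpl35* and *Rpl29* (both 0.32).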

How the data were processed

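Transcripts were measured on 8 two-colour Agilent arrays. The authors deposited scanner output of Feature Extraction 10.5.1.1, with spot intensity values and a log10 ratio of processed Cy5 over Cy3, and a deposited table of log2 ratios. Its columns had medians of 0.00257, 0.000831, −0.00441 and 0.00375 (*gastrocnemius*, pairs in order) and of 0.00138, −0.000366, 0.00288 and 0.00212 (TA, pairs in order). Its correlation with loess ratios computed without background correction was 0.999963 to 0.999996, so its centring and direction are known. A correlation does not show the scale, which was taken as log2.

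Median spot intensities were corrected with normexp (offset 50), normalized by loess within arrays (control spots at weight 0) and by quantiles over 16 channels (limma 3.58.1, R 4.3.3). The 3671 control spots and 233 to 318 outlier spots per array were left out, and spots of a probe were averaged. A probe was kept in a muscle when each of the 4 arrays had it well above background in either dye (23802 in *gastrocnemius*, 23391 in TA, 22765 in both). Genes were named through RefSeq accessions and represented by their brightest probe. Ratios were tested against 0 in each muscle, and the difference between muscles over 8 arrays, with lmFit and eBayes and Benjamini-Hochberg adjustment over kept probes, threshold 0.1. Lists are described by counts and medians only, without set tests.

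Named genes were up to 6 largest rises and falls among called members in each muscle, and *Eif6*, stalk, eIF6 site, 5S and paralog genes whatever their values; others named in the text were chosen after their values were seen. The members and lists were chosen with earlier results of these data known. The exclusion of pseudogene types, and of *Rps19bp1* and *Rps23rg1* from the small subunit, was decided after the files were seen. Alternatives were loess or quantile normalization alone, normexp with an offset of 0, uncorrected intensities, the processed signals of Agilent's software, the deposited ratios, other filters, other units of counting, SAM with all sign changes, a threshold of 0.05, a replicate block and leaving out each pair; the median over kept probes as a unit for counts was chosen after seeing the data. The steps were tested on simulated data. Figures used Python 3.11.15, pandas 2.3.3 and matplotlib 3.10.9.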

Additional observations from a re-analysis of the deposited data

Results flagged for a closer look

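In 5 of 56 sets of 4 pairs, 1 pair stood far from the others (its gap to the nearest other pair, divided by the whole range, was above Dixon's 95% limit); chance flags about 1 in 20 groups. *Rpl32* in TA had a gap of 0.929, with pair 4 at 0.23 and the others from 0.42 to 0.44. *Rpl41* in TA had 0.877, with pair 3 at 0.10 and the others from −0.19 to −0.16. *Rpl7l1* in *gastrocnemius* had 0.859, with pair 3 at 0.24 and the others from −0.09 to −0.04. *Rplp0* in TA had 0.843, with pair 1 at 0.11 and the others from 0.01 to 0.02. *Rpl11* in TA had 0.841, with pair 4 at 0.11 and the others from 0.30 to 0.34. The ratio of *Rpl10* was below 0 in all 4 *gastrocnemius* pairs and above 0 in all 4 TA pairs, a difference of −0.44 that did not pass the test of the difference (limma, adjusted p = 0.636).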

How the results depend on the processing

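The number of members called in *gastrocnemius*, 9 of 51 (in parentheses the share of all genes called, here 15.4%), became 2 with normexp offset 0 (11.5%), 2 with Agilent's processed signals (9.58%), 5 with the median over kept probes (11.8%; chosen after seeing the data) and 2 at an adjusted p under 0.05 (4.98%), and at most 13, with any kept probe (17.4%). Leaving out 1 pair gave 0 to 6 (0% to 14%). Without pair 1 there were 3 higher and 3 lower, beside 8.27% and 5.69% of all genes. In TA the number, 11 (16.3%), became 7 with normexp offset 0 (9.82%), 2 with processed signals (6.81%) and at most 15, without a filter (13.2%). With 1 TA pair left out it was 1 to 11 (0.546% to 16.2%). The member median in TA, 0.09, was 0.0274 with loess alone, 0.0311 with processed signals and 0.0351 in the deposited ratios, and 0.08 to 0.12 with 1 pair left out; in *gastrocnemius* it was −0.07 to −0.06 over the processing alternatives and −0.11 to −0.02 with 1 pair left out. *Eif6* in *gastrocnemius* ranged from −1.06 to −0.97 with 1 pair left out, and did not pass without pair 3 (adjusted p = 0.122) or pair 4 (adjusted p = 0.157); in TA it passed in all 4. *Rpl21* in *gastrocnemius* turned from −0.29 to 0.00 (0.00182) with the median over kept probes, since its other 2 probes read 0.10 and 0.07. The cause of the other shifts was not tested. *Rpl3* and *Rpl28* in *gastrocnemius* and *Rpl23* and *Rpl4* in TA passed in 9 of 9 processing alternatives. *Rpl3*, *Rpl28* and *Rpl4* have 1 probe each, so the median over kept probes could not change their ratio. *Rpl13* in *gastrocnemius* and *Rpl11* and *Rpl22l1* in TA passed in 5 of 9, and *Rpl23* and *Rpl21* in *gastrocnemius* in 6 of 9. SAM called 10 members in *gastrocnemius* (beside 21.5% of all genes) and 13 in TA (19.9%). The median difference between muscles was −0.25 to −0.12 with 1 pair left out, and 0 members were called in the difference under every alternative run.

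With the pair number as a replicate block, 0 members were called and the median difference was −0.18. An unadjusted p under 0.05 was found for 3 of 51 members and 840 of 12206 genes. Correlations of same-numbered pairs between the muscles over all genes were −0.12, −0.01, −0.36 and 0.11, and for 1 of 4 the own number was the highest, so whether equal numbers are the same mice is not known. The design names 4 mice of each genotype; the contrast over 8 arrays takes the muscles as separate animals. Signal over background left *Rpl10l* and *Rpl39l* untested.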
